A study of Mus musculus with 16 samples.

Results

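The BCL2 family decides whether a stressed cell keeps its mitochondria intact. Bcl2, Bcl2l1 (BCL-XL), Mcl1 and the Bcl2a1 genes (A1) encode pro-survival proteins, which hold the pore-forming effectors Bax and Bak1 in check, and Bcl2l11 (BIM) encodes a BH3-only protein that frees the effectors by binding the pro-survival members. In mice, lymphocytes are known to lean on BCL-2, A1 is a target of NF-kB, and MCL-1 protein turns over quickly. The 8 genes Bcl2, Bcl2l1, Mcl1, Bcl2a1b, Bcl2a1d, Bcl2l11, Bax and Bak1 were listed by name, and all 8 were among the 11713 genes measured. They are described here across spleen populations gated with antibodies.

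Spleens came from female BALB/cJ mice aged 9 months and were profiled with CITE-seq, which counts messenger RNA and DNA-tagged antibodies in the same droplet. The labels give no treatment and no engineered allele, so cell populations of the same libraries were compared. Of 16 samples, 4 fell in each of 4 groups, namely RNA and antibody tags of Main1 and of Main2. The 4 samples of a group shared 1 set of droplets in the deposited tables, so Main1 and Main2 are treated as 2 libraries. The series text speaks of 2 spleens, but no sample label ties a library to an animal. So p-values cover how differences between populations vary between these 2 libraries, a spread that may be technical. Red blood cells had been lysed for 5 minutes before staining.

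Main1 held 3179 droplets and 7964712 unique molecular identifiers (UMIs, each marking 1 captured RNA molecule), and Main2 held 3918 droplets and 10174799 UMIs. The libraries shared 14 droplet barcodes. The antibody gates and the plasma cell-like mRNA cluster took 3124 droplets, 44.0% of all, into 12 populations. By antibodies, 265 droplets were CD4 T cells, 55 CD8 T cells and 71 NK cells. There were 123 monocytes, 63 neutrophils, 67 red pulp macrophages, 21 conventional dendritic cells (DC), 38 plasmacytoid DC and 43 erythroid cells. The B lineage gave 82 plasma cells, 471 marginal zone B cells (CD21/35 in the top 25% of B cells, IgD under the median) and 1825 follicular B cells (IgD at or above the median, CD21/35 under the top 25%). The panel had no plasma cell antibody, so plasma cells alone came from an mRNA cluster, built without BCL2 family genes.

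The mRNA mostly matched the gates, with exceptions that touch several results. In the lymphocyte gates between 76.1% (NK) and 98.5% (follicular B) of droplets lay in mRNA clusters of their own class. The share was 63.4% among monocytes, with 32 of 123 droplets in an NK-like cluster, and 50.7% among red pulp macrophages, with 11 in a monocyte-like and 10 in a conventional DC-like cluster. Erythroid marker RNA summed to 42343 and 92695 CPM (counts per 1e6 UMIs of the sum) in the macrophage gate of Main1 and Main2. Immunoglobulin and haemoglobin genes took 57.9% and 61.1% of the UMIs of plasma cells, and 50.6% and 16.1% of those of erythroid cells. Levels below are CPM of the summed UMIs in Main1 and Main2, in that order. Log2 folds are from an edgeR quasi-likelihood fit on these sums. Their standard error (SE) was worked out as the size of the fold over the root of the F statistic. It is approximate, and for genes with few UMIs it can be too small. The fit rescales for RNA dominated by a few genes, so in plasma and erythroid cells it departs from the ratio of CPM.

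**Figure D1:**
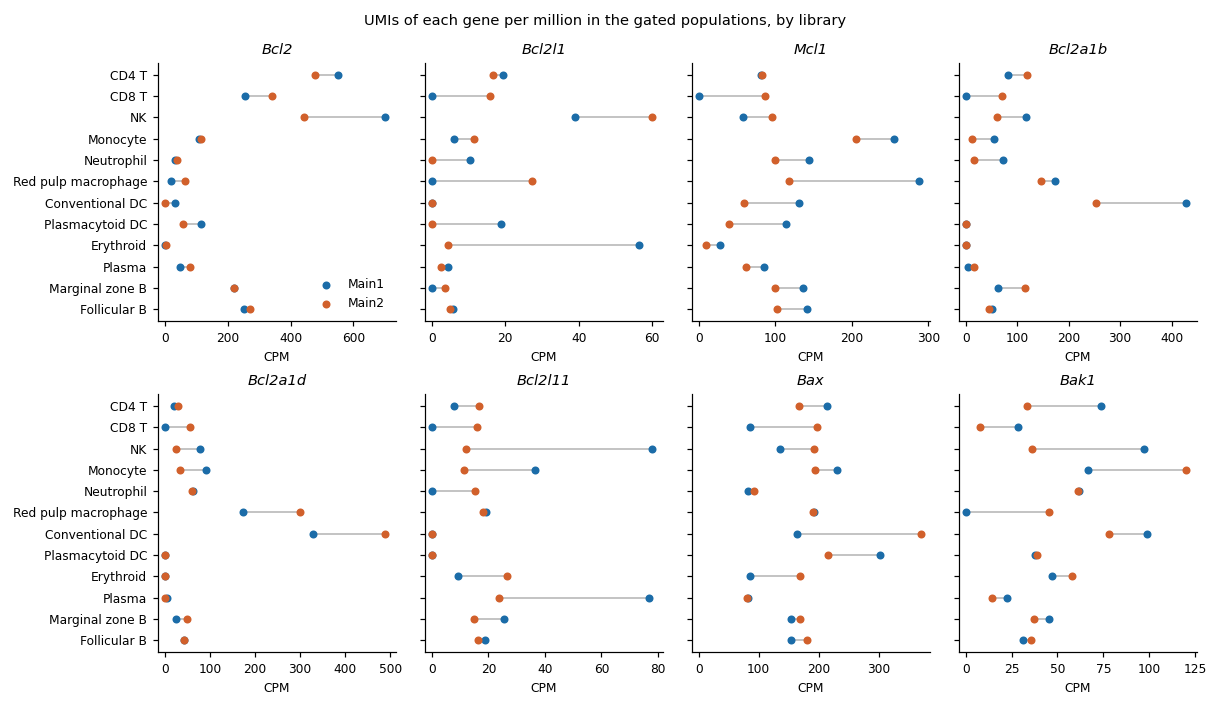
CPM (x axis, linear) of each of the 8 genes in 12 populations (y axis), with 1 point for each of the 2 libraries joined by a grey line. Bcl2 points lie farthest right in CD4 T and NK cells, and Bcl2a1b and Bcl2a1d points in conventional DC and red pulp macrophages.

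Each population was set against follicular B cells, the largest gate, and a gene was called at a Benjamini-Hochberg adjusted p under 0.05 over 8118 genes. In erythroid cells 5 of the 8 genes were called, where 31.7% of all genes were. Conventional DC had 3 of 8 against 7.5% of all genes. Plasmacytoid DC had 3 of 8 against 10.4%, red pulp macrophages 3 of 8 against 11.9%, plasma cells 3 of 8 against 17.5% and monocytes 3 of 8 against 19.6%. CD4 T cells had 2 of 8 against 12.7%. NK cells had 1 of 8 against 8.77%, neutrophils 1 of 8 against 19.2% and marginal zone B cells 1 of 8 against 4.26%. CD8 T cells had 0 of 8 against 6.73%, with 1 gene (Mcl1) at an unadjusted p under 0.05 and 0 called by DESeq2.

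Over the 11 comparisons 25 of 88 tests were called, 12 higher and 13 lower than in follicular B cells. The share of all genes called ran from 4.26% in marginal zone B cells to 31.7% in erythroid cells. With DESeq2-style size factors the split was 14 higher and 10 lower. The median log2 fold over all genes was below 0 in each comparison, from -0.05 in marginal zone B cells to -0.63 in conventional DC, and those size factors moved it by up to 0.44. For monocyte Mcl1 and plasma cell Bcl2, called with folds under 1 in size, the value relative to that median is given too, and for Bcl2 and Bcl2a1b in CD4 T cells it was 0.96 and 1.05. In bulk sums fewer expressing cells and less RNA per cell cannot be told apart.

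**Figure D2:**
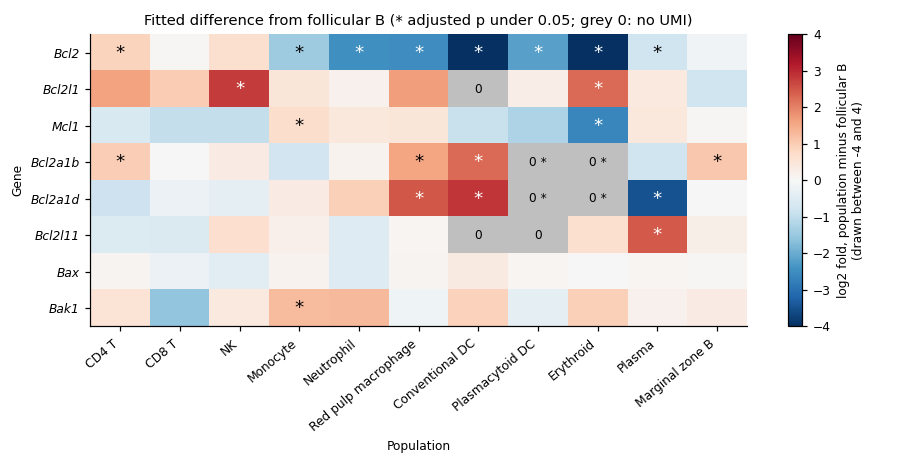
Fitted log2 fold of each gene (rows) in 11 populations (columns) relative to follicular B cells, with an asterisk where the adjusted p was under 0.05 and grey where the population had no UMI of the gene. Bcl2 carries 8 asterisks and Bax none.

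Bcl2, the founding pro-survival member, was called higher than in follicular B cells in CD4 T cells and lower in every myeloid, DC and erythroid gate and in plasma cells. It lies at chr1:106538178-106714274 on the minus strand (GRCm38, GENCODE vM21), and an antisense gene counted in the same table, D630008O14Rik, overlaps it. Its level was 551 and 479 CPM in CD4 T cells, 255 and 340 CPM in CD8 T cells and 700 and 443 CPM in NK cells, against 251 and 272 CPM in follicular B cells. Both CD4 T and both NK libraries lay above both follicular libraries, while the CD8 T libraries overlapped them. The CD4 T-cell difference was 0.90 ± 0.21 (SE, adjusted p = 0.00035), and it was 1.02 in Main1 alone and 0.78 in Main2 alone. In NK cells the difference of 0.65 ± 0.26 missed the threshold (adjusted p = 0.12). Erythroid marker RNA in the NK gate was 33408 CPM in Main1 and 527 CPM in Main2, and its part in the NK values was not tested.

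Marginal zone B cells had 221 and 219 CPM of Bcl2, against 251 and 272 CPM in follicular B cells, a difference of -0.15 ± 0.21 (adjusted p = 0.88). Plasma cells had 49.7 and 78.6 CPM. The fitted difference from follicular B cells was -0.80 ± 0.29 (adjusted p = 0.034), or -0.58 relative to the median of all genes. That call was lost under 7 of 11 alternatives, among them leaving out immunoglobulin and haemoglobin genes (adjusted p = 0.064).

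The myeloid gates lay well below. Bcl2 was at 109 and 114 CPM in monocytes, 30.8 and 38.2 CPM in neutrophils, 19.2 and 63.7 CPM in red pulp macrophages and 113 and 58.6 CPM in plasmacytoid DC. No library of these gates reached a follicular library. The log2 differences were -1.43 ± 0.29 in monocytes (adjusted p = 1.7e-05), -2.45 ± 0.45 in neutrophils (adjusted p = 1.6e-06), -2.47 ± 0.45 in red pulp macrophages (adjusted p = 2.2e-06) and -2.16 ± 0.44 in plasmacytoid DC (adjusted p = 5.1e-05). Among droplets whose mRNA class matched the gate the monocyte difference was -2.70 and the macrophage difference -4.47. With droplets thinned to 1100 UMIs the calls were lost in monocytes (-0.58, adjusted p = 0.252) and plasmacytoid DC (-1.52, adjusted p = 0.069). NK marker RNA summed to 7752 and 9330 CPM in the monocyte gate, against 272 and 141 CPM in follicular B cells and 20878 and 21145 CPM in the NK gate. The sum was not particular to monocytes, at 7503 and 8676 CPM in plasmacytoid DC and 3239 and 2513 CPM in the macrophage gate. In the macrophage gate of Main1 5 of the 9 markers had no UMI, so the sum does not measure NK cells alone.

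Conventional DC and erythroid cells were close to empty of Bcl2. Conventional DC had 1 UMI of 81634, and 0.0469 times the follicular level with a 95% counting interval of 0.00119 to 0.262. Erythroid cells had 1 UMI of 331656, and 0.0115 times the follicular level with an interval of 0.000292 to 0.0645. The adjusted p was 2.6e-07 in conventional DC and 4.8e-16 in erythroid cells. These intervals cover counting error only.

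In the order of mean level, neighbouring populations often could not be separated. NK cells stood first and CD4 T cells second with overlapping libraries, both CD4 libraries exceeded both CD8 libraries, and CD8 T cells overlapped follicular B cells. Follicular B cells lay above marginal zone B cells and marginal zone B cells above monocytes without overlap. Lack of overlap with 2 libraries each is no test. The edgeR fit called neither marginal zone against follicular B cells (adjusted p = 0.88) nor CD4 against CD8 T cells (adjusted p = 0.26). From monocytes down, through plasmacytoid DC, plasma cells, red pulp macrophages, neutrophils and conventional DC to erythroid cells, each neighbour overlapped the next. When every droplet was thinned to 1100 UMIs, 35.8% of CD4 T cells and 45.1% of NK cells had a Bcl2 UMI, against 23.7% of follicular B cells, and the unthinned shares were 51.3%, 57.7% and 33.7%. In neutrophils the thinned share was 4.76% (11.1% unthinned, at a median depth of 2731 UMIs).

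Across the 24 sums the genes whose log2(CPM + 10) followed Bcl2 most closely, out of 3854 searched, were Ptprcap (Pearson r 0.939), Gimap1 (0.925) and Gimap7 (0.923). These are lymphocyte genes, Ptprcap encoding a CD45-associated protein and the Gimap genes small GTPases. The points share libraries, so r is a description.

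Bcl2a1b and Bcl2a1d, copies of the A1 gene, are almost the same sequence. Both are on chromosome 9, at chr9:89199209-89207827 on the plus strand and chr9:88723285-88731914 on the minus strand, in GRCm38. Their transcripts matched at 99.1% of 817 aligned bases, with 7 mismatches, and the last 200 aligned bases held 1. How reads were split between them, and with Bcl2a1a, is therefore uncertain, and the sum of the 3 copies (summed A1 below) is given with the results. Their start regions are as alike as their transcripts. The RefSeq windows (GRCm38.p6) share the stretches chr9:89199023-89199278 (plus strand) and chr9:88731801-88732050 (minus strand). They are shown because the 2 genes' counts are read together throughout, with capitals marking bases that differ or are missing in the other copy.

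Bcl2a1b: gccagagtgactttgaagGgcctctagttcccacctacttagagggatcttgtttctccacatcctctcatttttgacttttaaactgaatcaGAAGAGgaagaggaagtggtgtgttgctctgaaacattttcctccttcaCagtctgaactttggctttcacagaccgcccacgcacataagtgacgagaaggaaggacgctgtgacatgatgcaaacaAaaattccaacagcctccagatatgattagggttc

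Bcl2a1d: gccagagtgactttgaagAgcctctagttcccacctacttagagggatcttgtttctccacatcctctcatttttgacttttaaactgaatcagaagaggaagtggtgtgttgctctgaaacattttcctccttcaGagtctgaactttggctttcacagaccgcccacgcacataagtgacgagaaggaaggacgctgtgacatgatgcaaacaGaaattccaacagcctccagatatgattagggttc

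The aligned parts differ at 3 positions, and the other capitals of Bcl2a1b are bases that Bcl2a1d lacks. A search of both strands of the 300-base windows (250 bases before to 50 after the start) for the NF-kB consensus motif found it in 4.51% of 32851 windows and in neither of these. No match says only that those letters are not in this window.

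Both copies were highest in conventional DC and in the red pulp macrophage gate. Conventional DC had 427 and 254 CPM of Bcl2a1b, against 51.4 and 45.2 CPM in follicular B cells. For Bcl2a1d the values were 329 and 488 CPM in conventional DC, against 43.2 and 41.4 CPM in follicular B cells. Every conventional DC library stood above every follicular library. The log2 differences were 2.27 ± 0.42 for Bcl2a1b (adjusted p = 7.8e-06) and 2.86 ± 0.38 for Bcl2a1d (adjusted p = 1.9e-10). They rest on 26 and 35 UMIs in 21 droplets.

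The red pulp macrophage gate had 173 and 146 CPM of Bcl2a1b and 173 and 300.4 CPM of Bcl2a1d, both clear of the follicular libraries. The differences were 1.59 ± 0.41 (adjusted p = 0.0018) for Bcl2a1b and 2.50 ± 0.35 (adjusted p = 3.1e-10) for Bcl2a1d. Among droplets of the gate in a macrophage-like mRNA cluster the Bcl2a1b difference was 1.64, while that of Bcl2a1d was 0.19 with an adjusted p of 0.93. With droplets thinned to 1100 UMIs neither macrophage call was kept (adjusted p = 0.197 for Bcl2a1b and 0.348 for Bcl2a1d). Summed A1 was 1019 and 1054 CPM in conventional DC and 518 and 683 CPM in the macrophage gate, against 105 and 88.4 CPM in follicular B cells.

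Plasmacytoid DC and erythroid cells had no UMI of either copy. Set at a floor of 3 UMIs over the population, Bcl2a1b was 5.34-fold lower in erythroid cells than in follicular B cells and 1.67-fold lower in plasmacytoid DC. Bcl2a1d was at least 4.68-fold lower in erythroid cells and at least 1.47-fold lower in plasmacytoid DC. The adjusted p was 8.9e-05 and 0.00021 in erythroid cells, and 0.012 and 0.020 in plasmacytoid DC, where 5 and 6 of 12 alternatives lost the call. In erythroid cells thinning to 1100 UMIs lost both calls (adjusted p = 0.33 and 0.359). Summed A1 had no UMI in either gate. Set at the floor it was 10.7-fold lower in erythroid cells and 3.36-fold lower in plasmacytoid DC than in follicular B cells. So the A1 copies had their highest levels in 1 DC gate and no UMI in the other. Plasma cells had 1 UMI of Bcl2a1d, 0.0369 times the follicular level with an interval of 0.000926 to 0.209 (adjusted p = 0.0033, or 0.092 by DESeq2). Thinning removed that UMI, and the adjusted p was then 0.292. Summed A1 was 9.03 and 16.7 CPM in plasma cells, below both follicular libraries.

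In marginal zone B cells and CD4 T cells Bcl2a1b was called and Bcl2a1d was not, and the difference between the copies was not tested. Marginal zone B cells had 62.3 and 115 CPM of Bcl2a1b, against 51.4 and 45.2 CPM in follicular B cells, a difference of 1.08 ± 0.23 (adjusted p = 0.00037). The marginal zone values lay above the follicular ones in both libraries, but the difference was 0.41 in Main1 alone and 1.43 in Main2 alone. The call was lost without the library as a block (adjusted p = 0.052) and by DESeq2 (adjusted p = 0.70). Summed A1 overlapped, at 87.8 and 166 CPM in marginal zone B cells, against 105 and 88.4 CPM in follicular B cells, and was lower in marginal zone B cells of Main1. Bcl2a1d was not called, at 25.5 and 48.1 CPM in marginal zone B cells, against 43.2 and 41.4 CPM in follicular B cells (0.00 ± 0.27, adjusted p = 1). Thinned to 1100 UMIs, 10.4% of marginal zone and 4.44% of follicular droplets had a Bcl2a1b UMI (18.9% and 6.9% unthinned).

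CD4 T cells had 81.4 and 120 CPM of Bcl2a1b, against 51.4 and 45.2 CPM in follicular B cells, a difference of 0.99 ± 0.28 (adjusted p = 0.0062). The difference was 0.55 in Main1 alone and 1.36 in Main2 alone. It too was lost without the block (adjusted p = 0.058) and by DESeq2 (adjusted p = 0.50). Summed A1 overlapped here as well, at 101 and 173 CPM in CD4 T cells, against 105 and 88.4 CPM in follicular B cells, and was lower in CD4 T cells of Main1. Bcl2a1d was not called in T or NK cells. Across the 24 sums Bcl2a1b and Bcl2a1d were each other's closest gene (r 0.876). Sh3bp1 and Elmo1 came next for Bcl2a1b (0.835 and 0.812), and Aif1 and Sh3bp1 for Bcl2a1d (0.836 and 0.824).

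Mcl1, whose short-lived protein guards many blood cells, varied less between gates. It lies at chr3:95658788-95663176 on the plus strand. Monocytes had 255 and 206 CPM, against 141 and 102 CPM in follicular B cells. Each monocyte library exceeded both follicular libraries, with a difference of 0.71 ± 0.26 (adjusted p = 0.039), or 0.99 relative to the median of all genes. Without the library block the adjusted p was 0.096. In the macrophage gate the values were far apart, 288 and 118 CPM, and the difference of 0.50 ± 0.36 was not called. Neutrophils, at 144 and 99.4 CPM, overlapped follicular B cells (0.42 ± 0.36, adjusted p = 0.46).

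Erythroid cells had 28.2 and 8.87 CPM of Mcl1, 5 UMIs in all, with a difference of -2.61 ± 0.54 from follicular B cells (adjusted p = 2.5e-05). Thinned to 1100 UMIs the erythroid droplets had no Mcl1 UMI left, and the adjusted p was 0.063. Both erythroid libraries lay below every other library save that of CD8 T cells in Main1, where 13 droplets held no Mcl1 UMI. The T, NK and plasmacytoid DC folds ran from -1.23 to -0.62 and none was called. The closest genes were Zfp36 (r 0.851), which encodes an RNA-destabilising protein, Rap1gds1 (0.828) and Fibp (0.789).

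Bcl2l1, which encodes BCL-XL and is needed for red cell maturation in mice, was rare, with 150 UMIs in all 7097 droplets. It lies at chr2:152780668-152831728 on the minus strand. NK cells had 38.9 and 59.9 CPM, 7 UMIs in 7 droplets, against 5.64 and 5.02 CPM in follicular B cells. The difference was 2.78 ± 0.88 (adjusted p = 0.026) with both NK libraries above both follicular ones, and DESeq2 gave an adjusted p of 0.086. Erythroid cells had 56.5 CPM in Main1 but 4.44 CPM in Main2, 6 UMIs and 1 UMI. The difference was 2.26 ± 0.86 (adjusted p = 0.032), but 3.80 in Main1 alone and -0.077 in Main2 alone, and 3 of 8 alternatives lost the call. The erythroid droplets had a median of 3027 UMIs in Main1 and 10900 in Main2, and the part of this gap in the result was not tested. CD4 T cells, at 19.4 and 16.6 CPM, had a difference of 1.60 ± 0.71 (adjusted p = 0.15).

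**Figure D3:**
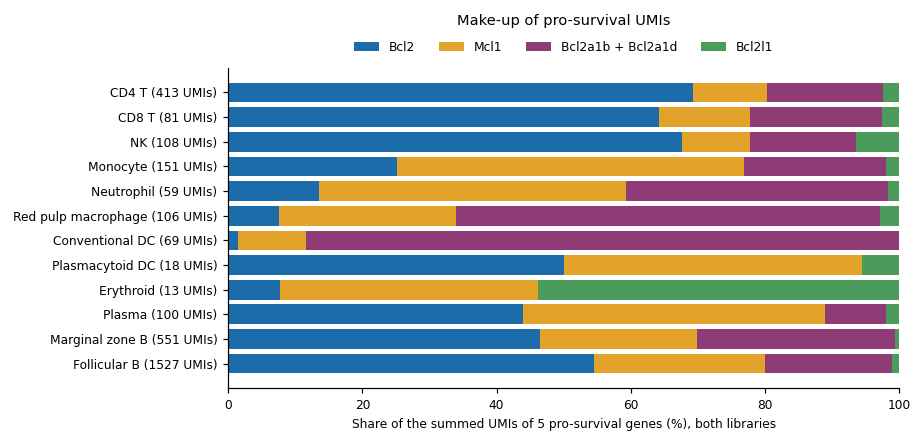
Share (x axis, percent) of the summed UMIs of Bcl2, Mcl1, Bcl2a1b with Bcl2a1d, and Bcl2l1 in each population (y axis), both libraries together, with the number of UMIs behind each bar. Bcl2 fills most of the bar in T and NK cells and Bcl2a1b with Bcl2a1d in conventional DC.

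The 5 pro-survival genes were also counted together. Differences between shares were not tested, and several intervals overlap. The shares compare the same genes between populations, with exact binomial intervals for counting error. Bcl2 gave 69.2% of these UMIs in CD4 T cells (64.6 to 73.7), 67.6% in NK cells (57.9 to 76.3) and 64.2% in CD8 T cells (52.8 to 74.6), against 54.6% in follicular B cells (52.0 to 57.1). Its share was 46.5% in marginal zone B cells (42.2 to 50.7) and 25.2% in monocytes (18.5 to 32.9). Mcl1 gave 51.7% in monocytes (43.4 to 59.9), 45.8% in neutrophils (32.7 to 59.2) and 45.0% in plasma cells (45 of 100 UMIs), against 25.4% in follicular B cells (23.2 to 27.7). Bcl2a1b with Bcl2a1d gave 88.4% in conventional DC (78.4 to 94.9) and 63.2% in the macrophage gate (53.3 to 72.4), against 18.9% in follicular B cells (17.0 to 21.0). In erythroid cells Bcl2l1 gave 7 of 13 UMIs.

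Bcl2l11, whose product BIM is known for removing lymphocytes, was called in plasma cells and in no other of the 11 comparisons. It lies at chr2:128126038-128162547 on the plus strand. Plasma cells had 76.7 and 23.8 CPM, against 18.8 and 16.3 CPM in follicular B cells, a fitted difference of 2.45 ± 0.46 (adjusted p = 4.3e-06). Both plasma libraries lay above both follicular ones. However, 55.6% of the 27 plasma cell UMIs came from 1 droplet, and without it the log2 difference was 1.29. With droplets thinned to 1100 UMIs it was 1.38 and the call was lost (adjusted p = 0.499). In NK cells the libraries disagreed, at 77.8 and 12.0 CPM (0.68 ± 0.82, adjusted p = 0.75). Conventional and plasmacytoid DC had no UMI, but their floors exceeded the follicular level. The marginal zone values of 25.5 and 14.8 CPM straddled the follicular ones.

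Bax, a pore-forming effector, was called in none of the 11 comparisons by edgeR at the main settings, where 0 of them reached an unadjusted p under 0.05, and DESeq2 called it in 0. It lies at chr7:45461697-45466898 on the minus strand. The level ran from 81.3 and 81.0 CPM in plasma cells and 82.1 and 91.8 CPM in neutrophils to 164 and 371 CPM in conventional DC and 302 and 215 CPM in plasmacytoid DC, against 154 and 181 CPM in follicular B cells. Fitted folds lay between -0.50 ± 0.37 in neutrophils and 0.35 ± 0.37 in conventional DC. For CD4 T cells the difference was 0.10 ± 0.24 and for marginal zone B cells 0.04 ± 0.22. In plasma cells the sign depended on scaling, being 0.08 ± 0.28 with the main scaling and -1.06 by total UMIs (adjusted p = 0.001). A missed threshold does not show equal levels.

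Bak1, the other effector, was higher in monocytes. It lies at chr17:27019810-27029009 on the minus strand, where Ggnbp1 on the opposite strand overlaps it and is also in the table. Monocytes had 66.7 and 120.0 CPM, against 31.3 and 35.7 CPM in follicular B cells, and the libraries did not overlap. The difference was 1.27 ± 0.36 (adjusted p = 0.0041), and 1.45 among droplets of a monocyte-like mRNA cluster. With droplets thinned to 1100 UMIs it was 0.79 and the call was lost (adjusted p = 0.499). Neutrophils had 61.6 and 61.2 CPM (1.30 ± 0.51, adjusted p = 0.059) and erythroid cells 47.0 and 57.7 CPM (0.96 ± 0.45, adjusted p = 0.088), both above the follicular libraries but not called.

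Of the remaining genes, Bax followed Ube2k (r 0.828), Cox4i1 (0.824) and Dctpp1 (0.824). Bak1 followed D1Ertd622e (0.769), Gtf2e2 (0.726) and Gins4 (0.711). Bcl2l1 followed Cmas (0.647), Ppa2 (0.629) and Dedd2 (0.59), and Bcl2l11 followed Tusc2 (0.626), Erlec1 (0.571) and Ebp (0.552).

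CD4 and CD8 T cells were compared directly, where 0.616% of all genes were called. None of the 8 genes was called by edgeR, 2 (Bcl2 and Bak1) had an unadjusted p under 0.05, and DESeq2 called 0. Bcl2 was at 551 and 479 CPM in CD4 T cells, against 255 and 340 CPM in CD8 T cells (0.84 ± 0.29, adjusted p = 0.26), without overlap. Bak1 was at 73.7 and 33.3 CPM in CD4 T cells, against 28.3 and 7.91 CPM in CD8 T cells (2.14 ± 0.92, adjusted p = 0.54). The CD8 gate rested on 13 droplets in Main1, and 5 of the 8 genes had no UMI there.

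CD44, an adhesion receptor that is high on T cells that have met antigen, split the CD4 gate. Bcl2 was lower in the CD44-high tertile, at 396 and 373 CPM, against 809 and 614 CPM in the CD44-low tertile (89 droplets each). No library overlapped, and the difference was -0.99 ± 0.22 (adjusted p = 0.0023). Bcl2a1b went the other way, at 136 and 163 CPM in CD44-high cells, against 33.7 and 40.9 CPM in CD44-low cells (1.93 ± 0.56, adjusted p = 0.047). Summed A1 was 156 and 225 CPM in CD44-high cells, against 33.7 and 81.9 CPM in CD44-low cells. So 2 of the 6 genes tested were called, where 2.27% of all genes were, and Bcl2l1 and Bcl2l11 had too few UMIs for the fit.

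CD44-high CD4 droplets were deeper (median 2084 UMIs against 1747) and held more antibody counts (median 3238 against 1732). The part of depth and staining in the split was not tested. The handling gene Junb (1.004 ± 0.26), the cell cycle gene Stmn1 (2.10 ± 0.57) and the receptor gene Il2rb (4.67 ± 0.93) were called higher with CD44. Their part in the Bcl2 and Bcl2a1b values was not tested. The CD44-high CD4 droplets also held more regulatory T-cell RNA. A UMI of Ikzf2 or Foxp3, transcription factors of those cells, was present in 12 of 41 and 18 of 48 CD44-high droplets, against 2 of 48 and 3 of 41 CD44-low droplets. Without these and droplets of other mRNA classes the Bcl2 difference was -0.72 (adjusted p = 0.12) and the Bcl2a1b difference 2.98 (adjusted p = 0.080). Leaving out droplets of other mRNA classes alone gave -0.94 for Bcl2 (adjusted p = 0.00088) and 3.03 for Bcl2a1b (adjusted p = 0.00076). DESeq2 called neither, with adjusted p = 0.082 and 0.33. With gates on the log-ratio within droplets the Bcl2a1b difference was 0.69 (adjusted p = 0.60). Mcl1, Bax, Bak1 and Bcl2a1d were not called, with folds of 0.34 ± 0.54, 0.29 ± 0.37, -0.40 ± 0.70 and 2.51 ± 1.24.

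**Figure D4:**
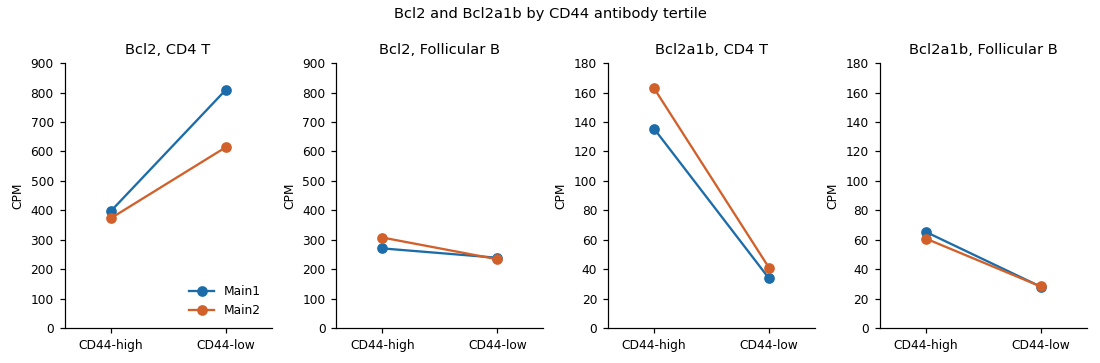
CPM (y axis) of Bcl2 and Bcl2a1b in the upper and lower CD44 tertiles of CD4 T cells and follicular B cells, with 1 line per library. Bcl2 is lower in CD44-high than in CD44-low CD4 T cells in both libraries, and slightly higher in CD44-high follicular B cells.

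In follicular B cells the same split moved Bcl2 little. It was at 271 and 308 CPM in the CD44-high tertile, against 239 and 234 CPM in the CD44-low tertile (0.25 ± 0.15, adjusted p = 0.93). Bcl2a1b was at 65.4 and 60.8 CPM, against 28.1 and 28.3 CPM in CD44-low cells, without overlap but not called (1.13 ± 0.31, adjusted p = 0.11). None of 6 genes was called by edgeR, with 0.362% of all genes called, 1 gene (Bcl2a1b) at an unadjusted p under 0.05 and 0 called by DESeq2. Summed A1 was 135 and 113 CPM in CD44-high cells, against 60.9 and 69.7 CPM in CD44-low cells. The CD44-high droplets were deeper (median 1808 UMIs against 1426) and held more antibody counts (median 4217 against 2935.5). They also held 27 droplets of other mRNA classes, 10 of them macrophage-like and 3 conventional DC-like, against 0 among CD44-low droplets, and without droplets of other classes the Bcl2a1b difference was 1.08 (adjusted p = 0.16). Tested directly, the CD44 effect on Bcl2 in CD4 T cells minus that in follicular B cells was -1.25 ± 0.26 (adjusted p = 0.0046), and 1.07% of all genes were called in that test. It was the only one of 6 genes called, and that call was lost without regulatory T-cell transcripts and droplets of other mRNA classes (adjusted p = 0.060). Junb was called in the same test (1.09 ± 0.29). For Bcl2a1b the difference between the 2 CD44 effects was 0.80 ± 0.70 (adjusted p = 0.84).

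Follicular B cells were also split by surface IgM, which falls on B cells that have bound self antigen. None of 6 genes was called by edgeR, with 0.805% of all genes called, 1 gene (Bcl2a1b) at an unadjusted p under 0.05 and 0 called by DESeq2. Bcl2a1b was at 33.3 and 31.5 CPM in IgM-high cells, against 58.0 and 60.3 CPM in IgM-low cells, without overlap (-0.90 ± 0.30, adjusted p = 0.30). Summed A1 was 61.3 and 74.5 CPM in IgM-high cells, against 109 and 99.8 CPM in IgM-low cells. Bcl2 was at 259 and 283 CPM in IgM-high cells, against 243 and 270.3 CPM in IgM-low cells (0.05 ± 0.13). Mcl1 (0.29 ± 0.19), Bcl2a1d (-0.32 ± 0.33), Bax (-0.23 ± 0.16) and Bak1 (0.46 ± 0.34) were not called either.

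The 9 B cell-like mRNA clusters, built without these genes, showed where A1 RNA lay among B cells. They were defined on the same droplets, so the values are a description with no test. A cluster of 775 droplets led by Cd83, Marcksl1, Il4i1 and Nfkbid had 155 and 148 CPM of Bcl2a1b and 115 and 83.6 CPM of Bcl2a1d. Cd83 is an activation marker and Nfkbid an NF-kB regulator. The next cluster, led by the marginal zone genes Hes1, S1pr3 and Cr2, had 73.8 and 98.1 CPM of Bcl2a1b. A cluster of 312 droplets led by Vpreb3, Fam129c and Iglc1, Vpreb3 being a gene of young B cells, stood lowest with 8.36 and 10.4 CPM.

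The same cluster had the least Bcl2, 171 and 177 CPM, while the other 8 clusters had 239.7 to 312 CPM in a library. Among those 8 was another cluster led by Vpreb3 (284 droplets), with 294 and 278 CPM of Bcl2 and 23.0 and 55.7 CPM of Bcl2a1b. In the cluster of 312 droplets, low in Bcl2, Mcl1 was at 238 and 222 CPM, against 101 and 91.5 CPM in the cluster of 284. The cluster led by Bhlhe41, Zbtb32 and other genes known from B-1 cells had 251 and 193 CPM of Mcl1, and the cluster led by Pax5 and Zfp318, whose droplets were deeper (median 3032 UMIs), 200 and 162 CPM. The other clusters lay between 85.4 and 148 CPM of Mcl1. Over the clusters and libraries Bax ran from 134 to 263 CPM and Bak1 from 10.8 to 54.3 CPM.

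**Figure D5:**
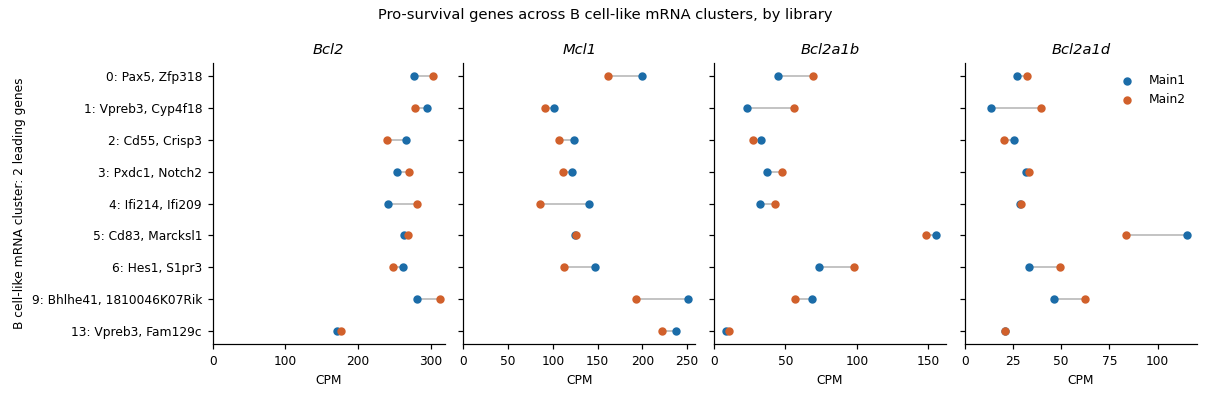
CPM (x axis) of 4 pro-survival genes in the 9 B cell-like mRNA clusters (y axis, named by number and 2 leading genes), with 1 point per library. Bcl2a1b is farthest right in the Cd83 cluster, and Bcl2 farthest left in the Vpreb3, Fam129c cluster.

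Of 18 further BCL2 family genes listed, 12 were measured and 9 had enough UMIs to be tested against follicular B cells. Bcl2a1a, the third A1 copy, was called higher in conventional DC (4.99 ± 0.59), the macrophage gate (4.91 ± 0.51), neutrophils (2.99 ± 0.79), CD8 T cells (2.95 ± 0.76) and monocytes (2.42 ± 0.64). In CD8 T cells 70.0% of its 10 UMIs came from 1 droplet, and follicular B cells had 20 UMIs. The BH3-only gene Bbc3 (PUMA) was higher in monocytes (4.13 ± 0.66), NK cells (3.92 ± 0.91) and CD4 T cells (2.55 ± 0.78), and Bid in marginal zone B cells (1.33 ± 0.30). Bad was higher in neutrophils (1.81 ± 0.58), monocytes (1.79 ± 0.42) and erythroid cells (1.29 ± 0.53). Pmaip1 (NOXA) was higher in conventional DC (2.13 ± 0.62). Bnip3l, a mitophagy receptor, was higher in neutrophils (0.76 ± 0.28) and lower in conventional DC (-1.52 ± 0.49), and it was also called higher in erythroid cells. Erythroid cells had no UMI of Pmaip1 or Bnip3, both called lower. None of the 9 was called in plasma cells (17.5% of all genes called) or plasmacytoid DC (10.4%).

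Of 22 caspase and apoptosome genes all were measured and 20 tested. Birc5 (survivin, a mitotic inhibitor-of-apoptosis protein) was higher in 10 of 11 populations, from 3.80 ± 0.68 in marginal zone B cells to 8.85 ± 0.43 in erythroid cells, and follicular B cells had 3 UMIs of it. Of 10 cell cycle genes, Birc5 among them, 10 were called higher in erythroid cells (31.7% of all genes called). There were 7 in neutrophils (19.2%) and in CD4 T cells (12.7%), and 6 in monocytes (19.6%). Marginal zone B cells (4.26%) and NK cells (8.77%) had 5 each. There were 4 in CD8 T cells (6.73%), conventional DC (7.5%) and plasma cells (17.5%). Plasmacytoid DC (10.4%) had 1, Birc5 itself, and the macrophage gate (11.9%) had 0. The marginal zone gate held 7 droplets of an erythroid-like mRNA cluster, the NK and monocyte gates 4 each and the follicular gate 1 of 1825. The macrophage gate held 3, and the neutrophil and plasma gates held none. The part of such droplets in the Birc5 and cell cycle values was not tested. Birc3 (cIAP2) was lower in CD4 T cells (-1.36 ± 0.31), CD8 T cells (-2.25 ± 0.60), NK cells (-1.86 ± 0.57) and plasmacytoid DC (-1.93 ± 0.63). Erythroid cells, where 31.7% of all genes were called, had 7 of the 20 higher and 5 lower. Among the lower were Casp8, an initiator caspase (-2.34 ± 0.54), and Birc3, with no UMI. The median fold of the 20 was 0.31 in erythroid cells, where that of all genes was -0.52.

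Of 32 survival receptors and regulators 28 were tested. Il7r, the IL-7 receptor chain that upholds Bcl2 in T cells, was higher in CD4 T cells (4.86 ± 0.34), CD8 T cells (5.38 ± 0.46) and NK cells (4.62 ± 0.54). It was also called higher in monocytes, plasma cells and plasmacytoid DC, where Bcl2 was called lower. Il2rb was higher in NK cells (5.67 ± 0.43), and also in CD4 T cells, CD8 T cells, monocytes and plasma cells. The monocyte gate had 16 UMIs of it and the NK gate 56. Of the 123 monocyte droplets 32 lay in an NK-like cluster, and their part in the Il2rb value was not tested. Tnfrsf13c (the BAFF receptor) was called lower in every population set against follicular B cells, with -4.70 ± 0.35 in CD4 T cells. Monocytes and the macrophage gate had 3 UMIs and 1 UMI of it, against 1580 in follicular B cells. Csf2ra was higher in monocytes (4.75 ± 0.41) and neutrophils (4.94 ± 0.52), and also in the macrophage gate, both DC gates and CD8 T cells. Tnfrsf17 (BCMA), a survival receptor of plasma cells, had 78 UMIs in plasma cells and 0 in follicular B cells. Marginal zone B cells, where 4.26% of all genes were called, had 1 of the 28 higher, Akt1 (1.72 ± 0.49). They had 3 lower, Bach2 (-1.51 ± 0.36), Il4ra (-1.14 ± 0.34) and Tnfrsf13c.

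Among 5 tested genes of MCL-1 protein turnover only Fbxw7, a ubiquitin ligase subunit, was called, higher in plasma cells (1.79 ± 0.53). Of 10 tested genes known to respond to tissue handling, 6 were higher and 1 lower in plasma cells, with Fos at 3.17 ± 0.24. There 17.5% of all genes were called. Monocytes had 4 higher and 1 lower (19.6% of all genes called), with Fos at 2.49 ± 0.24, while erythroid cells had 7 lower (31.7%). In conventional DC 4 were higher (7.5%), in neutrophils 3 higher and 1 lower (19.2%), and in the macrophage gate 3 higher (11.9%). Marginal zone B cells had 3 lower (4.26%), CD4 T cells 2 lower (12.7%) and CD8 T cells 2 lower (6.73%). Plasmacytoid DC had 1 higher and 2 lower (10.4%). Fos was called in 7 of the 11 comparisons. Mcl1 was called with it, in the same direction, in monocytes and erythroid cells, and was not called in plasma cells, neutrophils, the macrophage gate, conventional DC or CD4 T cells. The part of handling in the Mcl1 values was not tested.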

How the data were processed

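Per the file headers and values, the deposited tables held whole-number counts, namely UMI counts per gene and antibody-tag counts per droplet, without normalization by the authors. Cell Ranger 3.0.2, bcl2fastq and the mm10 build are listed in the submitters' processing notes. Droplet names beginning with m1 and m2 were read as Main1 and Main2. Members and lists were chosen with earlier results of these data known.

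Of 11713 gene identifiers 11682 matched a symbol. Antibody counts were turned into centred log-ratios across droplets, and positive droplets had a posterior above 0.5 in a mixture of 2 Gaussians (scikit-learn 1.9.0). NK cells needed 5 NKp46 counts. Leiden clustering (scanpy 1.11.5, 1922 variable genes, 30 components, 15 neighbours, resolution 1, 22 clusters) left out BCL2 family, immunoglobulin and T-cell receptor genes. Doublets were not removed, and 551 droplets were positive for CD3 and a B-lineage antigen.

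UMIs were summed per population and library and tested with edgeR 4.0.16 (R 4.3.3), TMM scaling, genes with 50 or more UMIs and the library as a term. The library pairs the sums, since each library supplied every population. There were 24 sums and 11 residual degrees of freedom over lineages, 8 sums and 3 for CD44, 4 sums and 1 for IgM. The spread of a gene was shrunk towards a trend over all genes, with 249.8, 50.3 and 29.7 prior degrees of freedom in that order. It therefore rests mostly on other genes. CD44 and IgM groups were upper and lower tertiles of a gate. DESeq2 1.42.0 was an alternative. In simulated data 46% of 2-fold and 96% of 4-fold changes were recovered for marginal zone against follicular B cells over 8118 genes. The shares were 25% and 81% for CD44 in CD4 T cells, and 83% and 100% for IgM. The changed genes had 200 or more UMIs and a fixed spread was used, so rarer genes are not covered. Named are all 8 members, the 3 genes most alike each, and, from companion lists, genes among the 3 largest called folds of a comparison. Floors are 3 UMIs and intervals 95%.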

Additional observations from a re-analysis of the deposited data

Results flagged for a closer look

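The CD44 effect on Bcl2 differed between CD4 T cells and follicular B cells by a log2 difference of -1.25 (adjusted p = 0.0046, edgeR interaction term). In CD4 T cells Bcl2 was lower in CD44-high than in CD44-low cells in both libraries, and in follicular B cells it was higher in both. The handling gene Junb was called in the same test. The difference was -0.98 (adjusted p = 0.060) without droplets holding regulatory T-cell transcripts or lying in other mRNA classes, and -1.23 (adjusted p = 0.094) by DESeq2. It was -1.29 in Main1 alone and -1.13 in Main2 alone.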

How the results depend on the processing

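Of the 25 calls against follicular B cells the count was 20 to 31 under 10 alternatives, 15 with droplets under 4000 UMIs (8 comparisons left) and 11 with droplets thinned to 1100 UMIs. The marginal zone count of 1 was 0 by DESeq2 and 0 without the replicate block. The CD44 count in CD4 T cells, 2, was 1 with no filter, 1 with a filter of 200 UMIs, 1 with no replicate block and 1 with gates on the log-ratio within droplets. It was 0 by DESeq2 and 0 without regulatory T-cell transcripts and droplets of other mRNA classes, as was the count of 1 for the CD44 difference. The counts of 0 stayed 0 under the alternatives run. Of 28 calls, 18 were kept by DESeq2 and 23 with no replicate block, and thinning kept 13 of the 26 that had a value. In plasma cells Bax reversed to -1.06 and Mcl1 to -0.72 by total UMIs, a scaling that moved the median of all genes by -1.11. Bcl2l1 in erythroid cells ranged from -0.077 in Main2 alone, a reversed sign, to 3.804 in Main1 alone. Leaving out a library gives values with no test. The conventional DC gate had too few droplets for the own-class alternative. The alternative without immunoglobulin and haemoglobin genes and the one without regulatory T-cell transcripts were chosen after seeing the data. Depth limits the rarer genes, Bcl2l1 and Bcl2l11 above all. The causes were not tested.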
